A study of Homo sapiens with 6 samples.

Results

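The genes described here are 8 that act in the selective removal of mitochondria, chosen from the fold changes of a comparison of MDA-MB-231 cells given siRNA-1 with cells given a control siRNA. They are BNIP3L, BNIP3, FUNDC1, PINK1, BCL2L13, FKBP8, PHB2 and OPTN, and each matched 1 row among the 20042 genes of the count table by its Ensembl identifier. The values that chose them are the differences between these same 2 groups, so their changes are a description and carry no test. By the usual use of the term BNIP3L, BNIP3, FUNDC1, BCL2L13, FKBP8 and PHB2 are mitophagy receptors, whereas PINK1 is a kinase that acts ahead of the receptors and OPTN is a soluble adaptor.

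MDA-MB-231 is an established human breast cancer cell line, labelled wild type in the control cultures. Cultures received either siCTRL, a control small interfering RNA (n = 3), or siRNA-1, which targets ERBBride and whose cultures are labelled as a knockdown (n = 3). The series title speaks of a long non-coding RNA, of EGFR stability and of cell fitness. The level of ERBBride itself was not analysed here, the second arm rests on a single siRNA, and the sources used here give neither dose nor time after transfection. Replicates are labelled as biological, without saying how the cultures were separated, so that p-values measure the spread between these samples.

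Mitophagy is the delivery of mitochondria to the lysosome inside an autophagosome. Receptor proteins sit in the mitochondrial membranes and bind proteins of the ATG8 family on the growing autophagosome, while a separate route starts when the kinase PINK1 gathers on damaged mitochondria and, through ubiquitin, leads adaptors such as OPTN to ubiquitin-coated mitochondria. BNIP3 and BNIP3L (also called NIX) are known as genes induced in low oxygen by hypoxia-inducible factors (HIFs).

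Total counts ranged from 12813706 to 15014434 per library, where a count of 3 equals at most 0.234 CPM (CPM being counts scaled to a common library total), a limit that covers counting error only. The mesenchymal markers expected of the line were abundant (summed level of VIM, CD44, AXL, MSN and CAV1 from 6929 to 7256 CPM in siCTRL and from 3545 to 3674 CPM in siRNA-1 libraries). Of the luminal genes ESR1, PGR, CDH1, EPCAM and GATA3, PGR had 0 counts and the sum ran from 27.8 to 32.1 CPM in siCTRL and from 9.74 to 10.9 CPM in siRNA-1 libraries. Of 5 haematopoietic markers 4 had 0 counts in every library, and the sum ran from 0.149 to 0.547 CPM in siCTRL and from 0.279 to 0.861 CPM in siRNA-1 libraries. The sum of 3 endothelial markers, with CDH5 at 0, ran from 6.84 to 8.70 CPM in siCTRL and from 3.68 to 5.10 CPM in siRNA-1 libraries. That of 2 neuronal markers ran from 1.19 to 2.87 CPM and from 1.46 to 2.31 CPM. The part of these differences in the values below was not tested.

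BNIP3L had the largest difference of the 8 genes. Its level, in CPM after scaling of the libraries by trimmed means (TMM) and listed here and below in the order of replicates 1 to 3, was 161, 185 and 168 in siCTRL and 24.3, 27.8 and 27.5 in siRNA-1 libraries. All siRNA-1 libraries lay far below all controls, and the libraries of each group lay close together. The mean was 172 ± 12.2 CPM in siCTRL and 26.5 ± 1.91 CPM in siRNA-1 (SD, n = 3 per group), 6.47-fold lower (log2 fold change -2.69, SE 0.0765). Ranked by log2 fold change from the most negative, BNIP3L stood at place 32 of 12440 genes tested. In the controls its level was above that of 90.2% of the genes tested, so the difference was not one of a barely detected transcript. BNIP3L (ENSG00000104765) is a protein-coding, plus-strand gene of chromosome 8, spanning 26382898 to 26505636 on GRCh38 in GENCODE 29. Exons of PNMA2 on the opposite strand cover 7.66% of its exonic bases, and the sources used here do not say whether counting was strand-specific. In bulk RNA a smaller number of expressing cells and less RNA per cell cannot be told apart, which holds for every gene below.

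**Figure D1:**
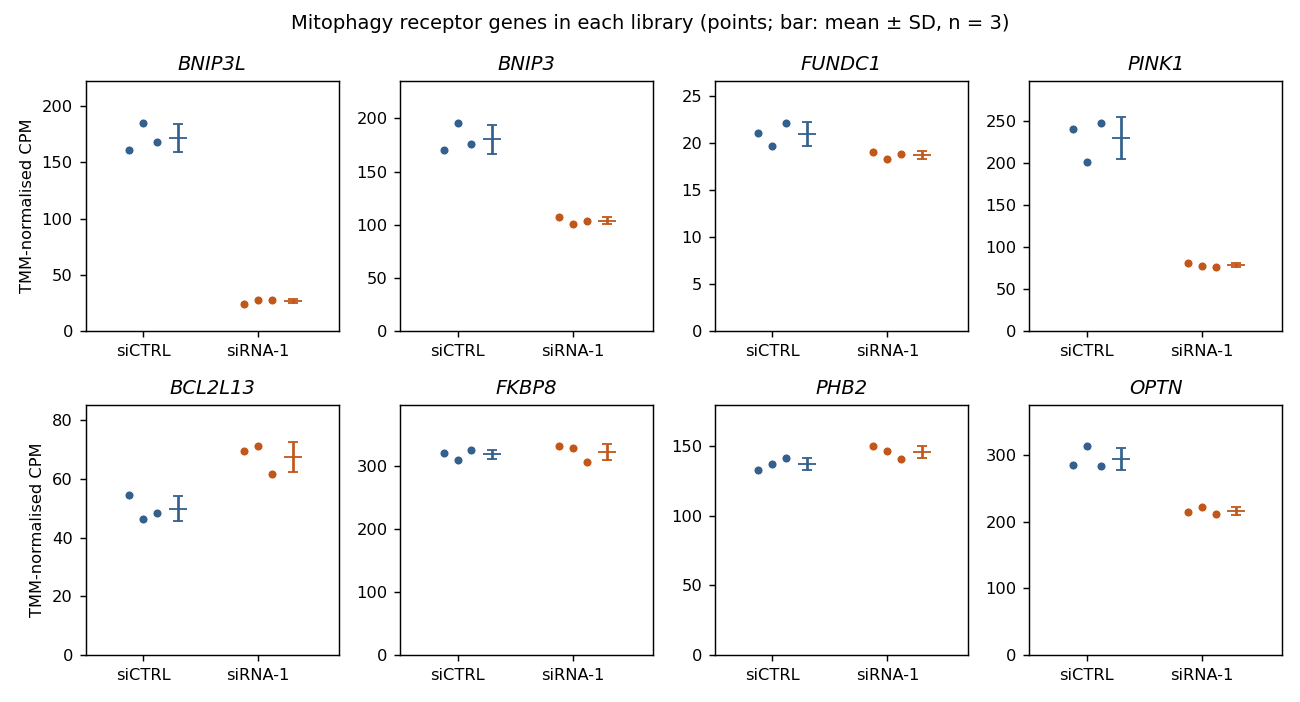
Level of each of the 8 genes in TMM-normalised CPM (vertical axis, from 0) in the siCTRL and siRNA-1 libraries. Points are libraries 1 to 3 from left to right and the bar beside them is the mean ± SD. For BNIP3L the siRNA-1 libraries sit between 24.3 and 27.8 and the controls between 161 and 185, while the groups overlap for FKBP8 and PHB2.

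PINK1 encodes the kinase that marks damaged mitochondria. Its level was 240, 201 and 248 CPM in siCTRL and 81.0, 77.6 and 76.9 CPM in siRNA-1 libraries. Every siRNA-1 library was below every control, and siCTRL 2 was the lowest control. The means, 230 ± 25.2 and 78.5 ± 2.19 CPM, differed 2.93-fold (log2 fold change -1.55, SE 0.0773), and without siCTRL 2 the log2 fold change was -1.65. PINK1 (ENSG00000158828) is a plus-strand gene of chromosome 1 from 20633455 to 20651511. The antisense gene PINK1-AS covers 39.4% of its exonic bases, and 54.5% of the 50-base stretches of its longest coding transcript also occur in transcripts of other genes, read on either strand, PINK1-AS sharing the most. Without a known strand setting, reads of PINK1 and of PINK1-AS cannot be told apart, and how many reads were left out as ambiguous is not known.

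BNIP3, the close relative of BNIP3L, was also lower in siRNA-1 cells, by a smaller amount. It had 170, 196 and 176 CPM in siCTRL and 107, 101 and 104 CPM in siRNA-1 libraries. The groups did not overlap. Means were 181 ± 13.8 and 104 ± 3.31 CPM, 1.74-fold lower in siRNA-1 (log2 fold change -0.80, SE 0.0642). BNIP3 (ENSG00000176171) is a minus-strand gene of chromosome 10 from 131966455 to 131982013. Of the 50-base stretches of its longest coding transcript 11% also occur in the transcript of BNIP3P1, a processed pseudogene, so part of its reads could be assigned with some uncertainty.

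The bases just upstream of the BNIP3 start are shown because the gene is a known HIF target and because HIF genes differed strongly between the groups (below). HIFs bind ACGTG or GCGTG. Within 250 bases before to 50 bases after the RefSeq start, 6 matches on either strand were found in the BNIP3 window, CACGTG counting as 2 because it reads the same on both strands. Of 35116 such windows of RefSeq (GRCh38.p14) 48.4% held at least 1 match and 0.923% held 6 or more. These windows include several for some genes and were not matched to the BNIP3 window in content of G and C, which both sequences hold. The stretch upstream of every start annotated in GENCODE 29, chr10:131982014-131982173 on the minus strand (160 bases), is printed with the matches in capitals.
BNIP3 upstream: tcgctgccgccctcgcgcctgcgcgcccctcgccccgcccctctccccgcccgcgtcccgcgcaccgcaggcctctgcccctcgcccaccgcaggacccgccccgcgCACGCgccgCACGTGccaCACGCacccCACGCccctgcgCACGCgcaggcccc
All 6 matches fell in this stretch, within its last 60 bases. Windows were examined for 5 of the 8 genes, and not for BNIP3L, PINK1 or FKBP8. FUNDC1, PHB2 and OPTN had 0 matches in every window, and BCL2L13 had 1 in 1 of its 3 windows. A match describes the letters and does not show binding.

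The 3' untranslated regions (UTRs) were searched for GCTCACT, a 7-base sequence picked in an earlier look at these same data as enriched in genes lower by at least 2-fold after siRNA-1, so its presence is a description only. In the longest annotated 3' UTR, BNIP3 held it 3 times, BNIP3L 1 time and the other 6 genes 0 times. Of 12316 tested genes with a 3' UTR of at least 50 bases 20.5% held it and 1.88% held it 3 times or more. Of the sites of BNIP3, 2 are shown with the match in capitals and 11 bases on either side, from bases 233 and 2168 of the 3' UTR, on the minus strand of chromosome 10 (GRCh38).
BNIP3 site 1: gtctgcctgttGCTCACTgaatataaacg
BNIP3 site 2: cttgcaacataGCTCACTgaagagctgtt
Whether these sites bear on the levels was not tested.

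OPTN encodes optineurin, the adaptor that links ubiquitin on mitochondria to ATG8 proteins. Its level was 285, 313 and 283 CPM in siCTRL and 215, 222 and 211 CPM in siRNA-1 libraries, again without overlap. The means of 294 ± 16.6 and 216 ± 5.95 CPM differed 1.36-fold (log2 fold change -0.44, SE 0.0565). The gene (ENSG00000123240) is a plus-strand gene of chromosome 10 from 13099449 to 13138308, and exons of CCDC3 on the other strand cover 2.86% of its exonic bases.

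BCL2L13, a receptor of the outer membrane from the BCL2 family, was the 1 gene of the 8 whose siRNA-1 libraries all lay above the controls. It had 54.7, 46.4 and 48.5 CPM in siCTRL and 69.5, 71.1 and 61.7 CPM in siRNA-1 libraries. Means were 49.9 ± 4.32 and 67.4 ± 5.00 CPM, 1.35-fold higher (log2 fold change 0.43, SE 0.0795). The gene (ENSG00000099968) is a plus-strand gene of chromosome 22 from 17628855 to 17730855, and no other annotated gene shares its exons.

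FUNDC1, FKBP8 and PHB2 differed little. FUNDC1, an outer membrane receptor whose binding to ATG8 proteins is set by phosphorylation, had 21.1, 19.7 and 22.2 CPM in siCTRL and 19.1, 18.3 and 18.9 CPM in siRNA-1 libraries. The groups did not overlap, but the gap was narrow, with a log2 fold change of -0.16 (SE 0.0865). FKBP8, an outer membrane receptor that also holds BCL2 proteins at mitochondria, had 320, 310 and 325 CPM in siCTRL and 331, 328 and 307 CPM in siRNA-1 libraries. Its groups overlapped, with a log2 fold change of 0.02 (SE 0.0527) that crossed 0 under other settings, from -0.02 to 0.05. PHB2, a prohibitin of the inner membrane that binds ATG8 proteins once the outer membrane breaks, had 133, 137 and 142 CPM in siCTRL and 150, 147 and 141 CPM in siRNA-1 libraries, overlapping as well (log2 fold change 0.09, SE 0.0544). FUNDC1 (ENSG00000069509) is a minus-strand gene of chromosome X from 44523639 to 44543001, FKBP8 (ENSG00000105701) on chromosome 19 (minus strand) from 18531751 to 18544077 and PHB2 (ENSG00000215021) on chromosome 12 (minus strand) from 6965327 to 6970825. The small RNA gene SCARNA12 lies within 9.56% of the exonic bases of PHB2.

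Of the 8 genes, all of which passed the filter on low counts, 5 were called at an adjusted p under 0.05, 4 lower and 1 higher, where the same rule called 62.5% of all 12440 genes tested (31.0% lower and 31.5% higher). The groups did not overlap at 6 of the 8, against 67.6% of all genes tested. Lower by at least 2-fold and called were BNIP3L and PINK1, against 8.14% of all genes tested. Since the genes were chosen from this contrast, nothing is read from these counts. Their median log2 fold change was -0.30, against 0.01 for all genes tested. Without siCTRL 2, FUNDC1 was called too (log2 fold change -0.22), which made 6. In siCTRL 2, BNIP3L and BNIP3 were higher than in the mean of the other controls, by 0.17 and 0.18 on the log2 scale, whereas PINK1 was lower (-0.28). Over all genes tested the SD of this difference was 0.301, so these values are not particular to the 8 genes. The log2 fold changes without siCTRL 2 were -2.65 for BNIP3L, -0.75 for BNIP3, 0.37 for BCL2L13 and -0.41 for OPTN.

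**Figure D2:**
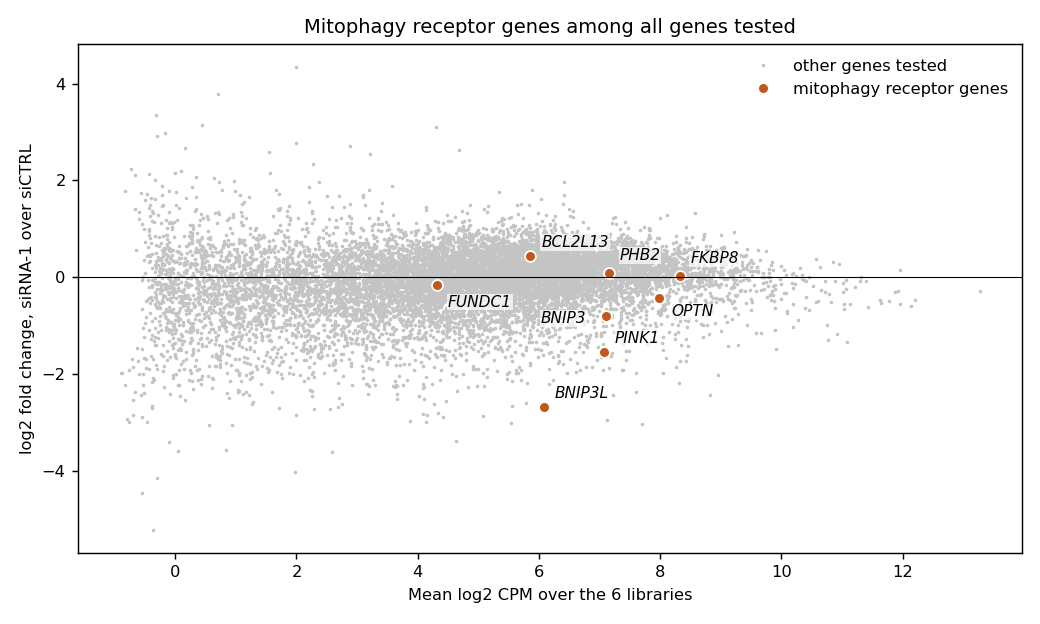
log2 fold change of siRNA-1 over siCTRL (vertical axis) against the mean log2 CPM over the 6 libraries (horizontal axis), 1 point per gene tested, with the 8 genes in orange. BNIP3L at -2.69 and PINK1 at -1.55 lie below most genes of like level, and FKBP8 at 0.02 and PHB2 at 0.09 lie close to the line at 0.

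Levels can be compared between genes only per length, here as RPKM, which is CPM divided by the exonic length in kilobases. In siCTRL, FKBP8 was the highest at 110 ± 2.72 RPKM, followed by OPTN (57.2 ± 3.23), PHB2 (55 ± 1.86), PINK1 (47.5 ± 5.21), BNIP3L (39.8 ± 2.84), BNIP3 (33.9 ± 2.59), FUNDC1 (15 ± 0.870) and BCL2L13 (6.51 ± 0.564). The libraries of OPTN and PHB2 overlapped on this scale, as did those of PINK1 and BNIP3L, while the other neighbours in this order did not. In siRNA-1, BNIP3L was the lowest of the 8 at 6.15 ± 0.443 RPKM, under BCL2L13 at 8.80 ± 0.652 RPKM, and BNIP3 at 19.5 ± 0.621 RPKM stood above PINK1 at 16.2 ± 0.453 RPKM. With the length of the longest transcript in place of all exons, OPTN and PHB2 changed places in siCTRL, and so did BNIP3 and BNIP3L (58.9 and 47.5 RPKM). The order within these pairs therefore rests on the length used.

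**Figure D3:**
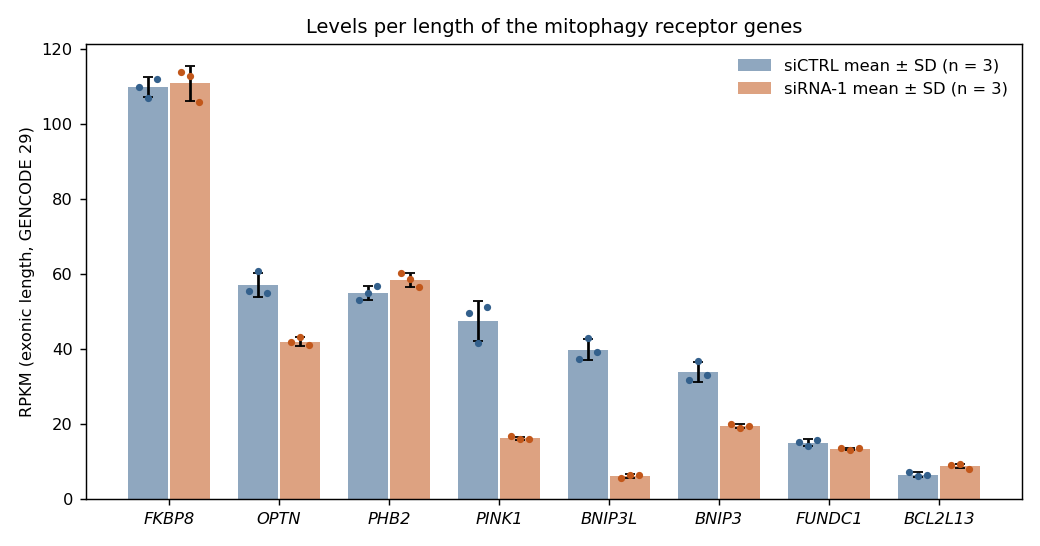
RPKM of the 8 genes (vertical axis, from 0) in siCTRL and siRNA-1, ordered by the siCTRL mean. Bars are means, error bars SD (n = 3) and points libraries. BNIP3L moves from 39.8 to 6.15 and FKBP8 stays the highest, at 110 and 111.

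Ratios within a library need no scaling between libraries. The ratio of BNIP3L counts to BNIP3 counts was 0.952, 0.944 and 0.955 in siCTRL and 0.227, 0.276 and 0.265 in siRNA-1 libraries. It was almost the same in the 3 controls, siCTRL 2 included, and lower in every siRNA-1 library. The mean was 0.950 ± 0.00533 in siCTRL and 0.256 ± 0.0258 in siRNA-1. The ratio of BNIP3L to PINK1 counts was 0.671, 0.920 and 0.679 in siCTRL and 0.300, 0.358 and 0.357 in siRNA-1 libraries. Here siCTRL 2 stood above the other controls, and the groups did not overlap. The ratio of PINK1 to FKBP8 counts was 0.721 ± 0.0624 and 0.244 ± 0.00731. Of the RPKM summed over the 8 genes, BNIP3L made up 10.9% ± 0.764 in siCTRL and 2.24% ± 0.204 in siRNA-1 libraries. The share of PINK1 was 13.0% ± 1.40 and 5.89% ± 0.121, and that of FKBP8 30.1% ± 0.684 and 40.3% ± 0.539.

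Among 11474 other genes whose mean log2 CPM reached 1, the 5 whose profiles over the 6 libraries were nearest to that of BNIP3L were TMCC3, PM20D2, FAF1, EPHX1 and ITGA10. Likeness was the root mean square distance between log2 CPM values, each taken from the gene's own siCTRL mean, and ran from 0.0774 for TMCC3 to 0.145 for ITGA10 on the log2 scale. TMCC3 had 52.5 ± 2.30 CPM in siCTRL and 7.52 ± 0.519 CPM in siRNA-1. FAF1 had 90.4 ± 7.17 and 12.3 ± 0.838 CPM. Of these 5 genes 4 held GCTCACT in the 3' UTR, as did 6 of the 12 pathway genes that were lower by at least 2-fold, against 20.5% of tested genes. The sequence was picked from genes lower by at least 2-fold, which include these, so nothing is read from the counts.

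Around these receptors, 12 lists of genes of the pathway held 126 further genes, of which 124 had enough counts to test. In siRNA-1 cells 43 rose, 34 fell and 47 did not pass, so that 62.1% were called, close to the share among all genes (62.5%). Their median log2 fold change was 0.08.

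**Figure D4:**
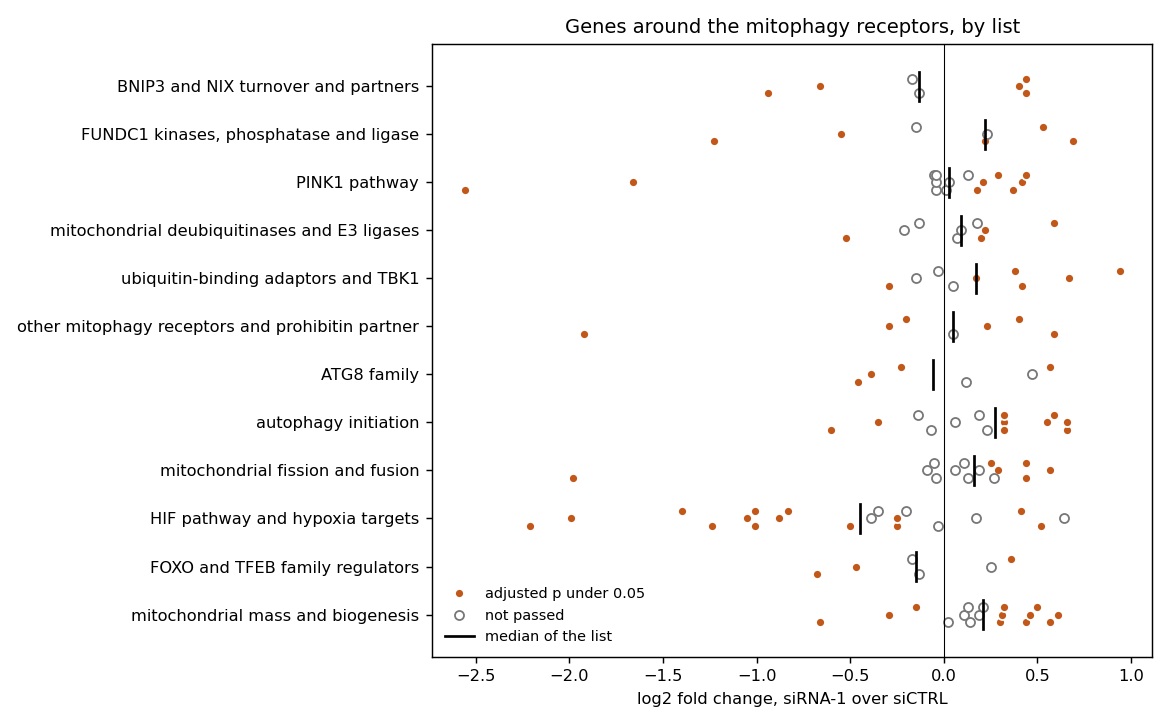
log2 fold change of siRNA-1 over siCTRL (horizontal axis) of the tested genes of each list, 1 point per gene, filled where the adjusted p was under 0.05, with a black line at the list's median. Points are spread vertically within a list for legibility. The list of the HIF pathway has its median at -0.45, the lowest of the lists, and autophagy initiation at 0.27, the highest.

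Among genes that set the amount of BNIP3 and BNIP3L protein or bind them, 3 of 7 rose, 2 fell and 2 missed the threshold (median log2 fold change of the list -0.13). Thus 71.4% were called, against 62.5% of all genes. PPTC7, a mitochondrial phosphatase that promotes the turnover of BNIP3 and BNIP3L, rose 1.36-fold from 60.2 ± 2.62 to 81.9 ± 1.53 CPM (adjusted p = 4.4e-05, edgeR). FBXL4, the ubiquitin ligase subunit that works with it, had 37.9 ± 1.69 and 33.6 ± 0.949 CPM and did not pass (adjusted p = 0.0525). It passed without siCTRL 2 (log2 fold change -0.22, adjusted p = 0.00627). It also passed with the size factors of DESeq2 (-0.18, adjusted p = 0.0485) and at a mean of at least 100 counts (-0.21, adjusted p = 0.0203). BCL2L1, an antiapoptotic gene of the BCL2 family, fell 1.91-fold from 666 ± 39.1 to 349 ± 8.04 CPM (adjusted p = 7.1e-08). OPA1, which fuses inner membranes, rose 1.36-fold (adjusted p = 4.0e-05). For enzymes that act on FUNDC1, 3 of 7 rose, 2 fell and 2 missed the threshold. The median log2 fold change of that list was 0.22, with 71.4% called against 62.5% of all genes. The catalytic subunits of casein kinase 2 moved apart: CSNK2A1 rose (log2 fold change 0.53, adjusted p = 3.4e-06) and CSNK2A2 fell (-1.23, adjusted p = 7.8e-07). CSNK2B, their regulatory subunit, had 0.733 ± 0.0565 CPM in siCTRL. Its exons are shared on 23.0% of bases by a protein-coding gene of the same strand, so its low level cannot be told apart from a loss of ambiguous reads.

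In the list of the PINK1 route 6 of 15 tested genes rose, 2 fell and 7 missed the threshold (median log2 fold change of the list 0.03, with 53.3% called). The falls were those of TOMM22, a receptor of the outer membrane import pore, from 53.8 ± 7.51 to 9.10 ± 0.781 CPM (5.92-fold, adjusted p = 8.9e-09), and of RHOT1, a GTPase that anchors mitochondria to motors, from 35.4 ± 1.81 to 11.2 ± 1.36 CPM (3.15-fold, adjusted p = 7.7e-08). VDAC1, the main pore of the outer membrane, rose 1.29-fold (adjusted p = 5.2e-05). Among deubiquitinases and other ubiquitin ligases 3 of 9 rose, 1 fell and 5 did not pass. Thus 44.4% were called, against 62.5% of all genes. USP30, which removes ubiquitin from mitochondria, fell 1.44-fold from 11.4 ± 0.594 to 7.94 ± 0.893 CPM (adjusted p = 0.00300), and AMBRA1, a scaffold of autophagy that is also a receptor, rose 1.51-fold (adjusted p = 1.4e-05). This count of 4 called genes was 2 without siCTRL 3.

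The list of ubiquitin-binding adaptors other than OPTN also holds the kinase TBK1 and its partners TANK, AZI2 and TBKBP1. In it 5 of 9 genes rose, 1 fell and 3 missed the threshold (median log2 fold change of the list 0.17, with 66.7% called against 62.5% of all genes). TBK1, the kinase that phosphorylates OPTN, rose 1.92-fold from 41.1 ± 2.77 to 79.0 ± 1.95 CPM (adjusted p = 2.6e-07). NBR1, an adaptor named here after its values were seen, rose 1.59-fold (adjusted p = 1.5e-06). SQSTM1, the gene of p62, fell 1.22-fold from 1024 ± 131 to 836 ± 29.8 CPM (adjusted p = 0.00716). CALCOCO2, the gene of NDP52, had a log2 fold change of -0.15 and did not pass (adjusted p = 0.0967). It passed without siCTRL 1 (-0.21, adjusted p = 0.0458) and at a mean of at least 100 counts (-0.19, adjusted p = 0.0488). Without siCTRL 2 it was -0.08. TAX1BP1 had a log2 fold change of 0.17 (adjusted p = 0.0323), a call lost when any library but siCTRL 2 was left out (the highest adjusted p being 0.177, without siCTRL 1). That call was also lost at a mean of at least 100 counts (adjusted p = 0.0866). In the list of other receptors and of the prohibitin partner of PHB2, 3 of 7 rose, 3 fell and 1 did not pass. Called were 85.7%, against 62.5% of all genes. NIPSNAP2, a matrix protein that can flag damaged mitochondria, fell 3.79-fold from 40.6 ± 1.53 to 10.7 ± 1.13 CPM (adjusted p = 1.5e-08). PHB1, the partner, had 252 ± 34.0 and 296 ± 10.8 CPM (log2 fold change 0.23, adjusted p = 0.0313). This call was lost without siRNA-1 replicate 1 (adjusted p = 0.106) or replicate 2 (adjusted p = 0.0827), and at a mean of at least 100 counts (adjusted p = 0.0619). Without siCTRL 2 the log2 fold change was 0.11 (adjusted p = 0.0212).

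Of the ATG8 family, to which the receptors bind, 1 of 6 tested genes rose, 3 fell and 2 missed the threshold (median log2 fold change of the list -0.06). The share called was 66.7%, against 62.5% of all genes (31.0% lower and 31.5% higher). MAP1LC3B, the gene of the widely used marker LC3B, fell 1.31-fold from 83.2 ± 6.08 to 63.3 ± 4.03 CPM (adjusted p = 5.2e-04). GABARAPL2 rose 1.48-fold from 37.5 ± 4.37 to 55.6 ± 5.11 CPM (adjusted p = 2.4e-04). GABARAPL1 fell 1.18-fold (adjusted p = 0.0158), a call lost without siRNA-1 replicate 1 (adjusted p = 0.0514) or replicate 2 (adjusted p = 0.0629), and the count of 4 called genes was 2 without siRNA-1 replicate 1. GABARAP had 2.00 ± 0.862 CPM in siCTRL, and a protein-coding gene of the same strand shares 30.5% of its exonic bases. MAP1LC3C had 0 to 7 counts per library and was not tested.

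Of 14 genes that start autophagosome formation 7 rose, 2 fell and 5 missed the threshold (median log2 fold change 0.27, with 64.3% called against 62.5% of all genes, of which 31.5% were higher and 31.0% lower). ATG9A, a lipid scramblase of vesicles that seed the autophagosome, rose 1.58-fold from 42.6 ± 1.89 to 67.4 ± 1.93 CPM (adjusted p = 3.1e-06). PIK3C3, the lipid kinase of the initiation complex, fell 1.52-fold from 73.1 ± 4.63 to 48.2 ± 1.46 CPM (adjusted p = 9.8e-06). In mitochondrial fission and fusion 5 of 14 rose, 1 fell and 8 missed the threshold. The median log2 fold change of this list was 0.16, with 42.9% called against 62.5% of all genes. MFF, the outer membrane anchor of the fission GTPase, rose 1.49-fold (adjusted p = 4.9e-06). GDAP1, another fission gene, fell 3.95-fold from 4.41 ± 0.433 to 1.11 ± 0.290 CPM (adjusted p = 1.8e-05). DNM1L, the fission GTPase itself, had 102 ± 9.46 and 106 ± 6.32 CPM with a log2 fold change of 0.06 (adjusted p = 0.508), a value that was -5.1e-04 without siCTRL 1 and 0.12 without siCTRL 2 (adjusted p = 0.0364).

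The list of the HIF pathway and hypoxia targets had the lowest median: 12 of 20 genes fell, 2 rose and 6 missed the threshold (median log2 fold change of the list -0.45, with 70.0% called, against 62.5% of all genes, 31.0% lower and 31.5% higher). HIF1A, the oxygen-regulated subunit of HIF-1, had 468, 593 and 530 CPM in siCTRL and 133, 130 and 138 CPM in siRNA-1 libraries. It fell 3.97-fold (log2 fold change -1.99, SE 0.0795, adjusted p = 3.2e-09). EPAS1, the gene of HIF-2 alpha, had 154, 156 and 151 CPM in siCTRL and 30.3, 35.7 and 33.9 CPM in siRNA-1 libraries. It fell 4.62-fold (adjusted p = 7.3e-10), and for both genes every siRNA-1 library was below every control. VHL, the ubiquitin ligase subunit that marks HIF proteins for degradation, rose 1.43-fold from 93.2 ± 0.792 to 134 ± 6.26 CPM (adjusted p = 7.8e-06). The pathway's own regulators went both ways: HIF1A, EPAS1 and HIF1AN fell, EGLN1 and VHL rose, and ARNT, EGLN2 and EGLN3 did not pass. EGLN1 (log2 fold change 0.41) and EGLN3 (-0.20) could also be counted as hypoxia targets. The split into regulators and targets was not one of the lists, and the counts that follow depend on it. Leaving all of these regulators aside, 3 of 12 target genes missed the threshold (CA9, ANKRD37 and P4HA1). The other 9 fell (31.0% of all genes were lower), 0 rose (31.5% were higher) and the median log2 fold change of the 12 was -0.85. With BNIP3L at -2.69 and BNIP3 at -0.80, the pair lay below and close to this median, respectively. Oxygen and HIF protein were not measured, and whether these differences bear on one another was not tested.

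Of transcription factors of the FOXO and TFEB families, 1 of 6 rose, 2 fell and 3 did not pass. FOXO3, a known activator of BNIP3, fell 1.60-fold from 64.6 ± 3.96 to 40.4 ± 2.22 CPM (adjusted p = 6.4e-06), and TFE3, an activator of lysosomal genes, rose 1.28-fold (adjusted p = 3.0e-04). Of 17 genes of mitochondrial mass and biogenesis 8 rose, 3 fell and 6 missed the threshold (median log2 fold change 0.21, with 64.7% called against 62.5% of all genes, 31.5% higher and 31.0% lower). TFAM, which packages mitochondrial DNA, rose 1.36-fold from 102 ± 3.85 to 138 ± 2.85 CPM (adjusted p = 2.4e-05). PPARGC1A, the coactivator PGC-1 alpha, fell 1.58-fold from 11.4 ± 2.19 to 7.20 ± 0.610 CPM (adjusted p = 0.00248). The count of 11 called genes was 7 without siRNA-1 replicate 2. All of these are RNA levels, and neither receptor protein nor mitophagy itself was measured.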

How the data were processed

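Total RNA of 6 cultures was sequenced from NEBNext Ultra libraries, per the labels' protocols. The deposited file holds raw read counts per Ensembl gene, made by the authors with HTSeq; the submitters' processing notes also name Trimmomatic, STAR, kallisto and the build hg38. The sources used here give no versions, annotation release, strand setting or filters. All 20042 genes matched a symbol, and 19847 had a position in GENCODE 29.

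These were tested with edgeR 4.0.16 under R 4.3.3: filterByExpr (minimum count 10, minimum total count 15) kept 12440 genes, libraries were scaled by TMM (factors 0.972 to 1.02), and siRNA-1 was compared with siCTRL by a two-sided quasi-likelihood F test in a model of group alone, with p-values adjusted by Benjamini-Hochberg across every gene kept and called under 0.05. SE came from the fold change and F. The common biological coefficient of variation was 0.0656. RPKM used the union of exons in GENCODE 29, and profiles used log2 CPM with a prior count of 2. Steps were tested on simulated data.

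The 8 genes, the 12 lists and the tests were chosen with earlier results of these data known. Named genes were the 8, a fixed set of 13 pathway genes, the called gene with the smallest adjusted p in each direction per list, and the 5 genes most like BNIP3L. Any other gene was named in view of its values. Alternatives were other scalings, filters and thresholds, DESeq2 1.42.0, limma-voom (limma 3.58.1), the replicate number as a block and leaving out each library. Protein sequences were not used here. Some items are not reported here.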

Additional observations from a re-analysis of the deposited data

How the results depend on the processing

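All alternatives were planned. The 8 genes kept their direction, except FKBP8, whose log2 fold change of 0.02 became -0.02 at a mean of at least 100 counts and without siCTRL 2, and ranged from -0.02 to 0.05 over the library left out (-6.7e-05 without siRNA-1 replicate 1). DNM1L ranged from -5.1e-04 (without siCTRL 1) to 0.12 in the same way. Over 14 alternatives BNIP3L ranged from -2.75 to -2.63, PINK1 from -1.65 to -1.50, BNIP3 from -0.85 to -0.75, OPTN from -0.48 to -0.41 and BCL2L13 from 0.37 to 0.50. Of the 8 genes 5 were called under each alternative except without siCTRL 2, when 6 were. Among pathway genes between 61 (threshold 0.01) and 90 (without siCTRL 2) were called, against 77, and over all genes between 6206 and 8635, against 7772. At a threshold of 0.01 the calls went from 4 to 2 among deubiquitinases and ligases, 6 to 3 among other receptors, 4 to 2 in the ATG8 family and 11 to 7 in mitochondrial mass. Over the library left out, 6848 to 8635 of all genes, 5 or 6 of the 8 and 65 to 90 pathway genes were called. Of 503 values of other named genes under alternatives 482 kept direction and call, 14 lost a call, 6 gained one and 1 changed sign.

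Replicate numbers are shared by the groups. Deviations of same-numbered samples from their group means correlated at 0.07, -0.08 and -0.06. Those of differently numbered samples correlated from -0.10 to 0.11. No shared variation was seen, but this cannot tell whether same-numbered cultures were prepared together. With the replicate number as a block 7535 genes, 5 of the 8 and 75 pathway genes were called. With the longest transcript as length, 4 of the 8 genes held their place in the order of levels per length, since the denominators differ. Scaling by library size alone moved the median of all genes from 0.01 to 0.04. Low counts limit MAP1LC3C, which could not be tested.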
